A study of Mus musculus with 11 samples.

Results

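Wild-type colonic macs (CMs) are described here against macs of brain, liver, lung and spleen. CMs were taken as the cell barcodes of the WT colon library in which the unique molecular identifiers (UMIs, counted RNA molecules) of C1qa, C1qb and C1qc, the chains of complement C1q that most tissue macs make, summed to 5 or more. This held for 4984 of the 4989 barcodes of that library, which was 1 of 11 libraries with 51712 barcodes in all, and 4578 CMs remained after a filter on UMIs, genes and mitochondrial RNA. They were compared with 2830 WT microglia, 4262 WT Kupffer cells (KCs), 6993 WT alveolar macs (AMs) and 3116 WT splenic macs (SMs). All 5 libraries came from CRE-negative Zeb2fl/fl C57Bl/6 mice of 6 to 8 weeks, littermates of the Zeb2KO animals, so the controls too carry Zeb2 with loxP sites but no deletion. A second WT liver library, of 3661 KCs with the genotype Nr1h3fl/fl and no Cre in its label, served as another level for KCs, and the 5 Zeb2KO libraries, for which the labels give Fcgr1-cre x Zeb2fl/fl, were set against each other by the same rule at the end. RNA was counted in single cells with 10x Genomics 3′ chemistry. CMs and SMs were sorted as live CD45+CD64+F4/80+ cells without Ly6C, Ly6G and SiglecF, microglia as CD45int cells with CD64 and F4/80, KCs with Clec4F in addition to CD64 and F4/80, and AMs with CD11c and SiglecF. Each group is 1 library and the number of mice behind it is not given in the sources used here, so no test between tissues was possible and no p-value is given. Intervals are exact 95% Poisson or binomial intervals and cover counting error only.

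CMs live in the lamina propria, close to food antigens and bacteria, and in adult mice many of them are renewed from blood monocytes that enter the tissue and mature there. Mature CMs are known for high MHC class II, for uptake of dying cells and for restrained inflammatory responses. Longer-lived CMs near vessels, nerves and muscle have also been described in the gut wall. MHC class II molecules present peptides to CD4 T cells. Cd74 encodes the invariant chain, which guides the class II alpha and beta chains through the cell, and CIITA is the coactivator that switches on their genes.

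CMs were the deepest cells compared, with a median of 9200.5 UMIs and 2542.5 genes per cell against medians of 2417 (SMs) to 5413.5 UMIs (KCs). Their summed UMIs came to 45276504, against 8479433 to 27510014 in the other 4 libraries. Colon, brain and spleen were sequenced on a HiSeq and liver and lung on a NextSeq500. The colon was dissociated by a protocol of its own, the liver with collagenase A, and lung, brain and spleen with Liberase TM, brain with a Percoll gradient in addition. Tissue, protocol and library therefore cannot be told apart. The CM, microglia and SM libraries held Xist (1170 CPM in CMs, where CPM is a gene's UMIs brought to a common library size) and at most 0.236 CPM of each of 4 Y-linked genes, whereas KCs and AMs held Ddx3y at 77.1 and 150.4 CPM and at most 0.0364 CPM of Xist, so sex also differed between them. Between 18 and 48 barcodes of the CM library recurred in each of the other 10 libraries, at most 0.962% of its barcodes. No doublet caller was run.

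In colon the C1q rule left few cells out and did not remove other cell types. It kept 72.5% of the barcodes in spleen and at least 98.3% in brain and liver, and without it in the other 4 libraries 166 genes in place of 171 were higher in CMs. The 5 barcodes below it had a median of 3640 UMIs and held 5 Csf1r UMIs in all, those with 5 to 9 C1q UMIs (41 cells) stood at 223 CPM of Csf1r and 1882 CPM of the collagen gene Col3a1, and those with 20 or more (4806 cells) stood at 954 and 141 CPM. Among the CMs used, 177 (3.87%) held 20 or more UMIs of 10 fibroblast markers, 55 (1.20%) of smooth muscle and glia markers, 29 of plasma cell markers and 14 of epithelial markers, while 16 held 10 or more UMIs of endothelial and 8 of T and NK cell markers. In all, 247 CMs (5.40%) met 1 of these rules. The 177 cells with fibroblast markers had a median of 21 C1q UMIs and Csf1r at 264 CPM, against 181 and 973 CPM in the CMs that met none. Summed fibroblast markers came to 945 CPM in CMs and to 0.162 to 15.1 CPM in the other 4 libraries, and summed smooth muscle and glia markers to 241 against 1.85 to 10.1 CPM. None of the 10 fibroblast markers was at 0 in CMs. Without these 247 cells, 124 genes in place of 171 were higher and 26 in place of 23 lower in the comparison described below.

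Of the 4 marker genes fixed for CMs, Pf4, Ms4a7 and Ccl8 were at least 12.2-fold above each other library and Cd74 was 3.01-fold above KCs. Cd74-low CMs, described below, did not have this difference, but they were chosen for low Cd74 and set against KCs that were not divided. Pf4, the chemokine platelet factor 4 (GRCm38/mm10, chr5:90772435-90773383), stood at 4660.2 CPM in CMs (4640.3 to 4680.1), 382.5 in KCs, 8.96 in SMs, 3.49 in microglia and 2.87 in AMs. CMs thus held 12.2-fold more than KCs (log2 ratio 3.60, but 4.22 with the 5% of cells with most UMIs left out of each library), and the Nr1h3fl/fl WT KCs had 252 CPM. Ms4a7, which encodes a membrane-spanning protein (chr19:11321039-11336146), was at 1661 CPM in CMs (1649 to 1672), 79.8 in KCs, 78.2 in SMs, 8.69 in AMs and 0.486 in microglia. Ccl8, a chemokine that attracts monocytes and lymphocytes (chr11:82115185-82116799), was at 718 CPM in CMs (710.3 to 726) and 6.33 in KCs, with 1 UMI in SMs and none in microglia and AMs. Cd74 was at 23203 CPM in CMs (23158.5 to 23247), 7715 in KCs, 2188 in SMs, 193 in microglia and 98.6 in AMs. CMs thus held 20.8-fold more Ms4a7 and 113-fold more Ccl8 than KCs, the nearest library, but 3.01-fold more Cd74. Cd74 was at 2971.5 CPM in the Nr1h3fl/fl WT KCs, so the 2 WT liver libraries themselves differed 2.60-fold.

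A gene was called higher in CMs where it reached 20 CPM there and its log2 ratio of CPM + 1 over the highest of the other 4 WT libraries was 1 or more, and 171 of 4827 genes (3.54%) met this rule. Most of them moved with markers of other cell types, and whether those cells account for the calls was not tested. For 98 of the 171 (57.3%), the level was at least 2-fold higher in 1 of the sets of CMs with markers of another cell type than in the remaining CMs, most often in the sets with fibroblast (36 genes) or smooth muscle and glia markers (29 genes). The share of all genes that are 2-fold higher in 1 of these sets was not computed, so 57.3% has no background beside it. The endothelial set (16 genes) held 16 cells and the T and NK cell set (11 genes) 8 cells, and counting error is large in sets this small. Col3a1 (195 CPM in CMs, at most 1.06 elsewhere), the smooth muscle actin gene Acta2 (144 against at most 0.590), the proteoglycan gene Dcn (262 against at most 6.64), Rarres2 and Tpm2 were among the 20 genes with the highest ratios and followed these cells, and 9 of 9 fibroblast markers that reached 20 CPM were called. Col3a1, Dcn and Acta2 are themselves among the markers that picked these cells, as are all 9 fibroblast markers within the 36 genes, so for these genes the split restates the choice of cells. Without the 247 CMs with markers of another type, Col3a1 and Acta2 stood at 40.6 CPM each, and both still met the rule. Not every gene of the 98 fell like this. Lyve1, a hyaluronan receptor of lymphatic vessels and some tissue macs (162 CPM, at most 8.94 elsewhere), the monocyte chemokine receptor Ccr2 (95.2 CPM, at most 8.59) and the transcription factor gene Runx3 (65.7 CPM, at most 7.43) were higher in the endothelial or T cell sets, yet stood at 161, 99.6 and 68.3 CPM without the 247 CMs, and 45 of the 98 still met the rule there. The other 73 genes were less than 2-fold higher in each of these sets (Cxcl1, for example, at most 1.85-fold), and all 73 still met the rule without the 247 CMs. The latter was nearly fixed by the choice of the 73, because the 247 cells are only 5.40% of CMs. With the cells of 3 or more such UMIs (plasma cell markers not counted) left out of all 5 libraries, which also changes the levels CMs are compared with, 42 of the 98 and 71 of the 73 (all but Lyz1 and Baiap2) met it. The 73 genes are the base of what follows.

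**Figure D1:**
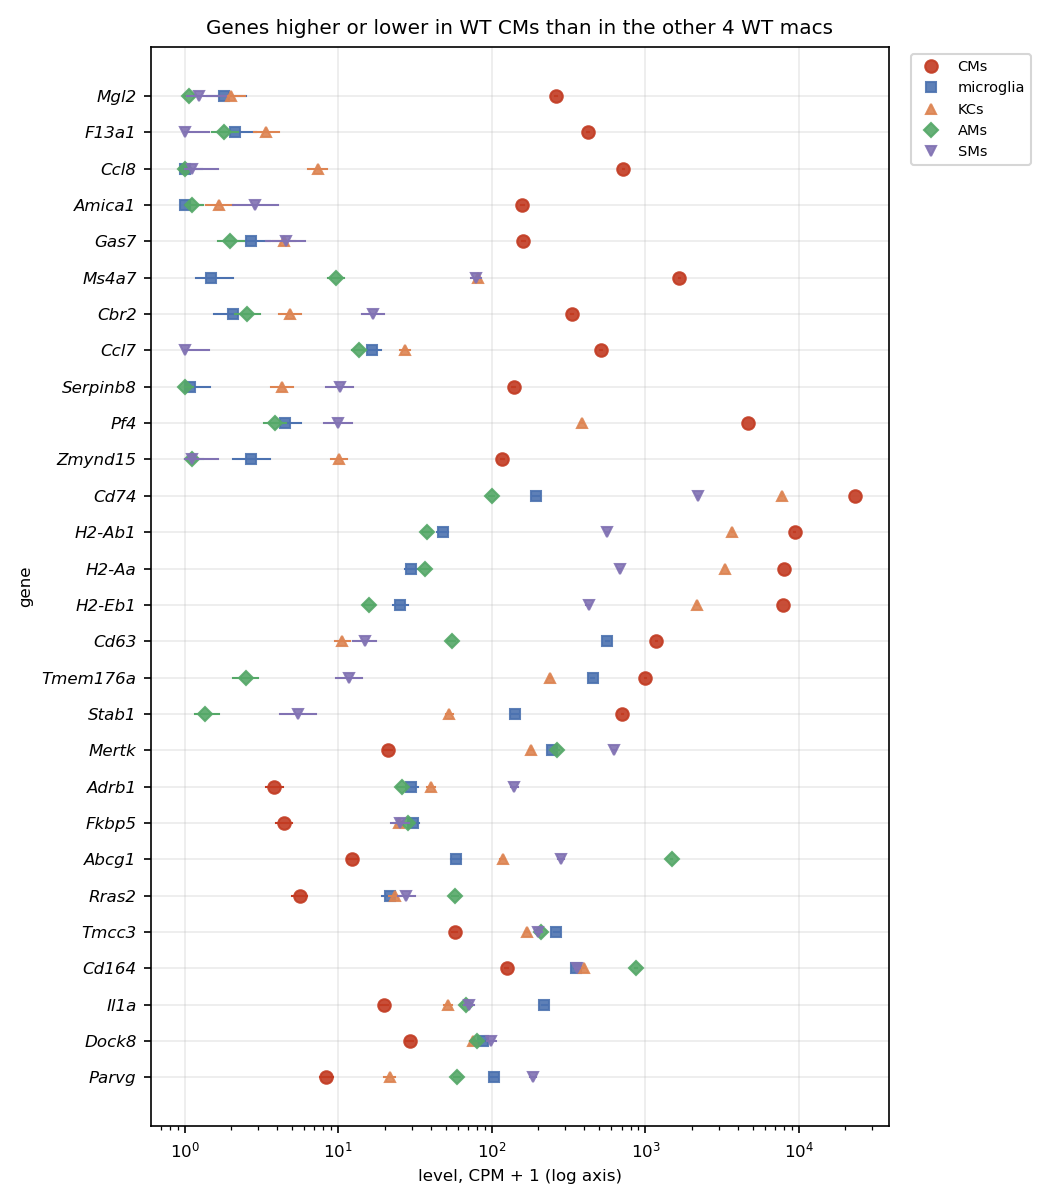
Levels of named genes in the 5 WT libraries. The x axis gives CPM + 1 on a log scale, each point is 1 library, and lines are exact 95% Poisson intervals. The red circles of CMs lie to the right of every other library from Mgl2 (261 CPM, at most 1.01 elsewhere) down to Stab1 and to the left of every other library from Mertk down.

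Among the 73 genes with 50 CPM or more and a UMI in at least 20% of CMs, Mgl2 and F13a1 had the highest ratios. Mgl2, a C-type lectin that binds galactose-type sugars (chr11:70130329-70137550), stood at 261 CPM in CMs (256 to 266), 1.01 in KCs, 0.811 in microglia, 0.236 in SMs and 0.0727 in AMs. F13a1, the catalytic A chain of coagulation factor XIII (chr13:36867178-37050244), stood at 421 CPM in CMs (415 to 427), 2.41 in KCs, 1.14 in microglia and 0.800 in AMs, with no UMI in SMs. These were the 2 highest ratios, 7.03 and 6.95 on the log2 scale. Cbr2, a carbonyl reductase (330 CPM), Amica1, an adhesion molecule of the junctional family (157 CPM), Gas7 (159 CPM), the protease inhibitor gene Serpinb8 (138 CPM) and the sodium pump subunit gene Fxyd2 (258 CPM) also had high ratios, and each of them lay at or below 24.0 CPM in the other 4 libraries. Stab1, a scavenger receptor (chr14:31139013-31168641), stood at 707 CPM in CMs, 0.364 in AMs, 4.48 in SMs, 51.8 in KCs and 140 in microglia. Of 16 genes at 20 CPM or more in CMs in a list of uptake receptors and bridging molecules, 6 were called higher, against 3.54% of all genes. They were the receptor genes Stab1, Cd209g, Clec10a, Colec12 and Lyve1, the last of which followed another cell type, and Gas6, a bridging molecule, while Mrc1 (637 CPM) lay below AMs and SMs and Folr2 (531 CPM) below KCs (1738 CPM).

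Among 18 chemokine ligand genes at 20 CPM or more in CMs, 7 were called higher, against 3.54% of all genes, and the median log2 level of CMs over the mean of the other 4 was 3.46, beside -0.27 over all 7613 genes at 20 CPM or more in any library. Besides Pf4 and Ccl8 these were Ccl7, which attracts monocytes (512 CPM in CMs, 26.3 in KCs, 15.5 in microglia, 12.6 in AMs and none in SMs), Cxcl16, the ligand of CXCR6 (531 against at most 264 CPM), the neutrophil attractant gene Cxcl1, and Ccl5 and Cxcl12, which followed T and NK cell and fibroblast markers. Without the 247 CMs with markers of another type, Ccl5 was still called (129 CPM, log2 ratio 1.36) and Cxcl12 was not (14.9 CPM, 0.13). The neighbours Ccl2 (523 CPM) and Ccl12 (253 CPM) were highest in CMs but less than 2-fold above microglia. Ccl3 (756 CPM) and Ccl4 (1074 CPM) were lower than in microglia, at 1387 and 2411 CPM. Of the chemokine receptors, Ccr1 was at 213 CPM against at most 59.7 elsewhere, and Cx3cr1, at 558 CPM, lay between microglia (2923 CPM) and SMs (62.6 CPM). Of 13 cytokine and growth factor genes at 20 CPM or more in CMs none was called higher, which for so short a list is near the 3.54% of all genes. Il10 was at 44.0 CPM in CMs, 26.1 in SMs and 11.1 in KCs, under the 2-fold rule.

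MHC class II genes were the most abundant of those called. H2-Ab1 stood at 9366 CPM in CMs, 3671 in KCs, 565 in SMs, 46.9 in microglia and 36.8 in AMs, and H2-Aa and H2-Eb1 had the same order of libraries in their 3 highest, with 7993 and 7853 CPM in CMs and 3296 and 2170.0 CPM in KCs. Ciita stood at 27.0 CPM in CMs, 11.3 in KCs and 6.72 in SMs, with no UMI in microglia. The peptide loading genes H2-DMa (810.1 CPM) and H2-DMb1 (564 CPM) were also highest in CMs, at less than 2-fold over KCs. In all, 5 of 12 class II genes at 20 CPM or more in CMs were called, against 3.54% of all genes, and each of the 5 lay nearest to KCs. In the Nr1h3fl/fl WT KCs, H2-Ab1 and H2-Aa were at 1282 and 1370.4 CPM, so the distance to KCs depends on which liver library is taken. Also called was H2-M2, a non-classical MHC class I gene, at 112 CPM against at most 1.01 elsewhere. Its log2 ratio of 5.82 was between those of Ccl8 and Amica1, and it was found in 19.3% of CMs, just under the 20% limit above.

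The stretches upstream of 2 class II genes are shown because their RNAs moved together across tissues and, as described below, across single CMs. They come from RefSeq (GRCm38.p6), read 5′ to 3′ on the strand of the gene, and the capitals mark TGATTGG, the core of the Y box, an element of class II promoters that NF-Y binds.
H2-Aa (chr17:34287829-34287933, minus strand, 110 to 6 bases before the start): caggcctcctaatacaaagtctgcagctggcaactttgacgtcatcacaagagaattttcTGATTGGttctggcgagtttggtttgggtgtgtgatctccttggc
H2-Eb1 (chr17:34305746-34305850, plus strand, 121 to 17 bases before the start): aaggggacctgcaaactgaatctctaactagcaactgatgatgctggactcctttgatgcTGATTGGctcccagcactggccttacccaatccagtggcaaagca
The motif began 50 bases before the start of H2-Aa and 61 bases before that of H2-Eb1. It was found, on either strand and within 250 bases upstream, in 4 of 5 class II genes with a promoter in the table (H2-Aa, H2-Eb1, H2-DMa, H2-DMb1 and H2-DMb2 were searched) and in 2375 of 32851 promoters overall (7.23%).

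Genes lower in CMs than in all other WT macs were fewer. With 20 CPM or more in each of the other 4 libraries and a log2 ratio under the lowest of them of -1 or less, 23 of 3535 genes (0.651%) were called. Mertk, the receptor tyrosine kinase through which macs take up apoptotic cells (chr2:128698956-128802894), was the lowest, with 19.99 CPM in CMs (18.7 to 21.3), 178 in KCs, 246 in microglia, 265 in AMs and 628 in SMs, which is 8.90-fold below the nearest library. This rank was not stable. With cells of 3 or more other-type UMIs left out, Adrb1 (log2 ratio -3.22) lay below Mertk (-3.00), and without microglia Abcg1 (-3.26) lay below Mertk (-3.09). In Cd74-low CMs, Adrb1 (-3.98), Parvg (-2.75) and Abcg1 (-2.71) lay below Mertk (-2.62). The Mertk ligand gene Gas6 was highest in CMs, with 282 CPM in CMs, 139 in microglia, 24.4 in SMs, 15.8 in KCs and 0.473 in AMs. Axl, the related receptor, was at 129 CPM in CMs, 534 in KCs, 536 in AMs, 1309 in SMs and 8.03 in microglia. Abcg1, a cholesterol exporter, stood at 11.3 CPM in CMs against 1484 in AMs, 281 in SMs, 117 in KCs and 57.2 in microglia. The glucocorticoid-inducible genes Fkbp5 (3.42 against 23.8 to 29.5 CPM) and Sgk1 (71.1 against 156 to 1058 CPM), the beta-1 adrenergic receptor gene Adrb1 (2.83 against 25.01 to 139 CPM), the GTPase gene Rras2 (4.59 against 20.8 to 56.5 CPM), Il1a (18.8 against 50.8 to 219 CPM) and genes for cell shape and integrin control (Dock8, Dock10, Parvg and Apbb1ip) were also called. Among them Sgk1, Il1a, Dock10 and Parvg met the rule in Cd74-low but not in Cd74-high CMs, described below (Il1a -0.99 and Parvg -0.92 in the latter). Of the general mac list, Csf1r (936 CPM), Adgre1 (579 CPM), Fcgr1 (172 CPM) and Tyrobp (2717 CPM) were within the range of the other 4 libraries, and of the 14 genes of this list at 20 CPM or more in each of the other 4 libraries 1 was called lower, Mertk. None of its 17 genes at 20 CPM or more in CMs was called higher, which is near the 3.54% of all genes. When each cell was thinned to 1000 UMIs, 2.10% of CMs held a Mertk UMI, against 16.9% of KCs, 22.1% of microglia, 22.6% of AMs and 45.3% of SMs.

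The same thinning gave Pf4 in 85.7% of CMs (17.3% of KCs and at most 0.607% of the others), Ms4a7 in 71.8% (at most 7.51%), Ccl8 in 31.9% (at most 0.446%) and F13a1 in 29.6% (at most 0.0707%). Among the 177 CMs with fibroblast markers these shares were 50.3%, 23.7%, 15.8% and 7.34%. None of the 4578 CMs was lost by thinning, and 151 SMs were.

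Markers of the other tissues were low in CMs but not uniformly so. The KC gene Clec4f was at 0.0221 CPM, a single UMI, the AM gene Cidec had none, the SM gene Itgad was at 0.839 CPM and the microglial genes Sall1 and Slc2a5 at 0.685 and 0.177 CPM. In contrast, CMs shared Fcrls with microglia (494.5 CPM, against 2580 in microglia, 0.350 in KCs and none in AMs and SMs), as well as Gpr34 (132 CPM), Olfml3 (106 CPM) and Tmem119 (72.4 CPM), which stood at 2156, 2296 and 2428 CPM in microglia. Folr2 and Cd209f (232 CPM in CMs, 126 in KCs and no UMI in the other 3) were shared with KCs. Of the 9 SM markers, 6 were at 20 CPM or more in CMs, so Itgad does not stand for this list. Together the 9 SM markers summed to 894 CPM in CMs and 27674 CPM in SMs. Without the 247 CMs with markers of another type, Hmox1 stood at 478 CPM and Vcam1 at 174 CPM in CMs. Of the monocyte markers, F13a1 and Ccr2 were called higher, whereas Plac8 stood at 96.4 CPM, below the 579 CPM of KCs, and at 53.6 CPM without the 247 CMs with markers of another type. The 9 monocyte markers summed to 676 CPM in CMs, 829 in KCs, 6082 in AMs, 84.0 in SMs and 7.62 in microglia. Chil3, which is also on the list of AM markers, made up most of the AM sum, and F13a1 most of the CM sum. In CMs Hp was at 0.817 CPM and Ly6c2 at 5.15 CPM, 143-fold higher in the cells with plasma cell markers than in the remaining CMs. Because CMs were sorted as cells without Ly6C, a low Ly6c2 level may follow in part from the sort.

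Counted pair by pair with a 2-fold rule and 20 CPM in the higher library, CMs were nearest to KCs. Against KCs, 602 of 5592 genes were higher in CMs (10.8%) and 617 lower (11%). Against microglia 777 were higher (12.6%) and 1338 lower (21.7%), against AMs 812 (13.1%) and 1638 (26.4%), and against SMs 864 (13.5%) and 2015 (31.5%). The 2 WT liver libraries, which have no tissue difference, gave 75 of 5465 (1.37%). The balance of higher and lower depended on scaling. With trimmed mean (TMM) factors, which raise the median log2 level of CMs over the other 4 by 0.24, the share of called genes that were higher went from 36.7% to 57.0% against microglia, from 33.1% to 44.2% against AMs and from 30.0% to 54.5% against SMs, and from 49.4% to 53.4% against KCs. Over 7408 genes with a known transcript length (97.3%), the log2 ratio of CMs had Spearman's rho with length of -0.47 against SMs, -0.27 against AMs, -0.09 against microglia and -0.06 against KCs, and of 0.51 between the 2 liver libraries. Against the mean of the other 4 it was -0.37. The called genes differed in length too, with a median of 2448 bases for genes higher in CMs, 3779 for genes lower and 3044 for all genes. Whether length bears on the calls was not tested. These are descriptions across genes of single libraries.

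CMs were not uniform. After thinning to 4000 UMIs, which left 4195 cells, 93 of 925 genes with a mean of 0.5 UMIs or more (10.1%) had a squared coefficient of variation beyond counting of 1 or more, against a median of 0.147. Retnla, which encodes the secreted protein RELM alpha, led with 105, and 76.6% of its UMIs lay in 1% of the cells. It stood at 136 CPM in CMs, 28.1 in KCs and 4.54 in the Nr1h3fl/fl WT KCs. Acta2 (57.2), Dcn (38.4), Adamdec1 (29.3), Col3a1 (21.5), Sparc (20.8), Igfbp7 (19.7) and Gsn (14.1) came next, with Cxcl1 (14.3) and Cd209f (9.05), and 53.6% to 85.8% of the UMIs of these 7 lay in the 5.60% of cells with markers of another type, which for Acta2, Dcn and Col3a1 follows from their use as markers. With all cells of 3 or more such UMIs (plasma cell markers not counted) left out, the 10 most variable genes were Retnla, Cxcl1, Cd209f, Gpnmb, Gdf15, S100a4, Cdkn1a, Ccl12, Ccl8 and Fabp5. Of 12 chemokine ligand genes at this level, 9 were at 1 or more, against 9.70% of all genes. The values were 6.21 for Ccl12, 5.94 for Ccl8, 4.17 for Ccl4, 3.89 for Ccl7, 3.71 for Cxcl2 and 3.48 for Ccl2, but 0.729 for Pf4, beside 0.121 for Csf1r, 0.282 for Ms4a7 and 0.190 for Lyz2.

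Cd74 itself was spread over a wide range in CMs. The study divided its CMs by Cd74 into 2 main groups, of which the high one also expressed H2-Aa, H2-Eb1 and Itgax. It described the profiles of these groups in CRE-negative mice as distinct. The groups below were cut by rank instead and need not match those of the study. CMs with 3 or more UMIs of another type's markers were left out for this, 1596 of 4578 (34.9%), many more than the 247 cells above. This filter did not count plasma cell markers, of which 524 of all CMs (11.4%) held 3 or more UMIs. Of the rest, the 2669 cells with 4000 UMIs or more were thinned to 4000 UMIs, and they were ordered by Cd74 and divided into 3 groups of about equal size. The 889 cells of the lowest group (Cd74-low CMs) held at most 22 Cd74 UMIs each (median 11) and the 889 of the highest (Cd74-high CMs) at least 132 (median 171). Cells were counted in steps of 10 UMIs. The 2 lowest steps held 332 and 520 cells, the 5 steps from 30 to 79 UMIs held 61 to 76 cells each, and the 6 steps from 110 to 169 UMIs held 102 to 127 each. Such a group is a range of 1 measure and not a cell type, and 118 cells lay between 20 and 29 and 105 between 130 and 139 UMIs, near the limits. In Cd74-low CMs Cd74 stood at 2854 CPM, below the 7715 CPM of the WT KCs but close to the 2971.5 CPM of the Nr1h3fl/fl WT KCs, and in Cd74-high CMs at 44368 CPM.

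**Figure D2:**
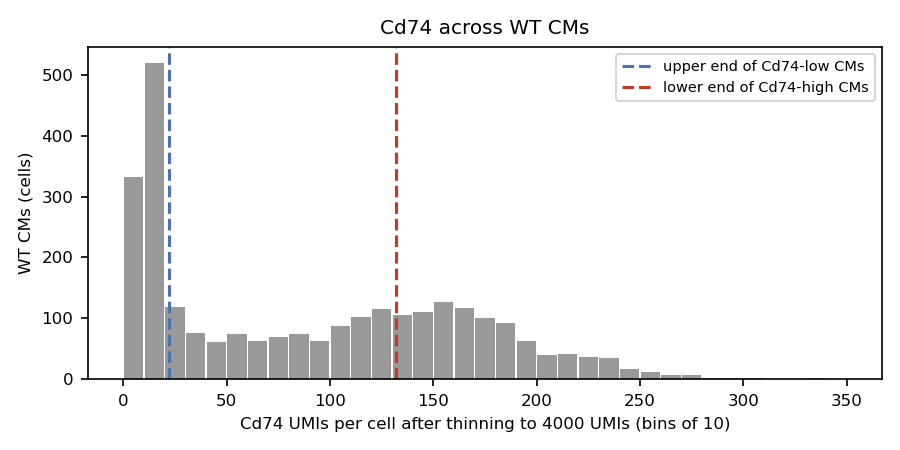
Cd74 UMIs per cell in WT CMs thinned to 4000 UMIs, without cells that held 3 or more UMIs of another cell type (plasma cell markers not counted). Bars count cells in steps of 10 UMIs, and dashed lines mark the ends of the Cd74-low (22 UMIs) and Cd74-high group (132 UMIs). The 2 lowest bars hold 332 and 520 cells, and a second, broad group of bars peaks at 127 cells.

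With all CMs, 223 of 5476 genes (4.07%) were at least 2-fold higher in Cd74-high CMs and 631 (11.5%) lower, and the 10 lowest (Meg3, Abi3bp, Col1a1, Plpp3, Dcn, Timp3, Eln, Aspn, Ccl21a and Pdgfra) were genes of stromal and vessel cells. Without the CMs of 3 or more such UMIs, 251 of 5242 genes (4.79%) were higher in Cd74-high CMs and 486 (9.27%) lower, with a median log2 ratio over all genes of -0.33, to which the following ratios can be compared. The genes below were taken from this second comparison, a choice made after the values were seen.

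Cd74-low CMs held more RNA of most genes of the uptake list, and the 10 genes with the lowest ratios included Lyve1, F13a1, Cbr2, Vsig4, Cd209f, Fcna, Cd163 and Ednrb. Lyve1 fell from 438 CPM in Cd74-low to 18.3 CPM in Cd74-high CMs, the clotting gene F13a1 from 1005 to 78.7, Cbr2 from 792 to 67.5, the folate receptor gene Folr2 from 1289 to 131, the complement receptor gene Vsig4 from 46.4 to 1.69, the lectin genes Cd209f and Fcna from 562 to 37.1 and from 566 to 36.0, the haemoglobin scavenger receptor gene Cd163 from 201 to 17.7 and the endothelin receptor gene Ednrb from 227 to 17.2 CPM. Of 20 genes of the uptake list tested, 14 were lower in Cd74-high CMs, against 9.27% of all genes, among them Stab1 (1266 to 348 CPM), Mrc1 (1162 to 280), Gas6 (572 to 95.3), Cd36 (548 to 62.7) and Timd4 (72.8 to 10.1), and Axl and Cd209a were higher. The median log2 ratio of these 20 genes was -2.39. The growth factor gene Igf1 (398 to 58.2 CPM), the iron exporter gene Slc40a1 (155 to 31.8), the complement genes C4b and Cfp and the transcription factor gene Maf (788 to 245) were also lower in Cd74-high CMs.

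Class II genes were higher in Cd74-high CMs, and cytokine and chemokine genes went both ways. Since these groups were formed by Cd74, 9 of 12 other class II genes being higher there is a description of genes that vary together. H2-Aa went from 1130.2 to 14419 CPM, H2-Eb1 from 1145 to 14546, H2-Ab1 from 1710 to 17260, H2-DMa from 284 to 1354 and Ciita from 2.25 to 50.6 CPM. Cell by cell, Spearman's rho with Cd74 was 0.92 for both H2-Aa and H2-Ab1 and 0.91 for H2-Eb1, against 0.70 for H2-DMa, 0.14 for Ms4a7, -0.36 for Ccl8 and -0.69 for Pf4 and Folr2. H2-M2 (5.06 to 204 CPM), Apol7c (38.2 to 535), the integrin gene Itgax (11.2 to 141), Ccr2 (15.2 to 184), the elastase and collagenase genes Mmp12 (7.03 to 80.4) and Mmp13 (20.5 to 172), the tetraspanin gene Cd9 (64.7 to 543) and Runx3 (12.4 to 105) were higher in Cd74-high CMs. Of 15 cytokine and growth factor genes 6 were higher and 4 lower (Igf1, Hbegf, Bmp2 and Pdgfc) in Cd74-high CMs, against 4.79% and 9.27% of all genes. The cytokine genes Il1b (188 to 1289 CPM), Tnf (80.4 to 206), Il1rn (39.9 to 110.0) and Osm (33.8 to 78.2) were higher there too, whereas Il10 (37.1 and 39.4 CPM) was not called. Chemokine ligands were divided, with 8 of 17 higher in Cd74-high CMs (Cxcl2, Ccl4, Ccl3, Cxcl16, Cxcl1, Ccl5, Cxcl10 and Cxcl9) and 8 lower (Pf4, Ccl8, Ccl9, Ccl2, Ccl7, Ccl6, Ccl24 and Cxcl13). Of all genes 4.79% were higher and 9.27% lower. Pf4 stood at 8408 CPM in Cd74-low and 1806 CPM in Cd74-high CMs. Of 28 immediate early and heat shock genes, which respond to handling of cells, 1 (Dusp2) was called higher in Cd74-high CMs and none lower, near the shares of all genes for a list of this size, while their median log2 ratio came to 0.38, above the -0.33 of all genes. Of 11 cell cycle genes tested 7 were lower in Cd74-high CMs, against 9.27% of all genes, such as Top2a (22.2 to 5.62 CPM, near the floor of 20 CPM).

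**Figure D3:**
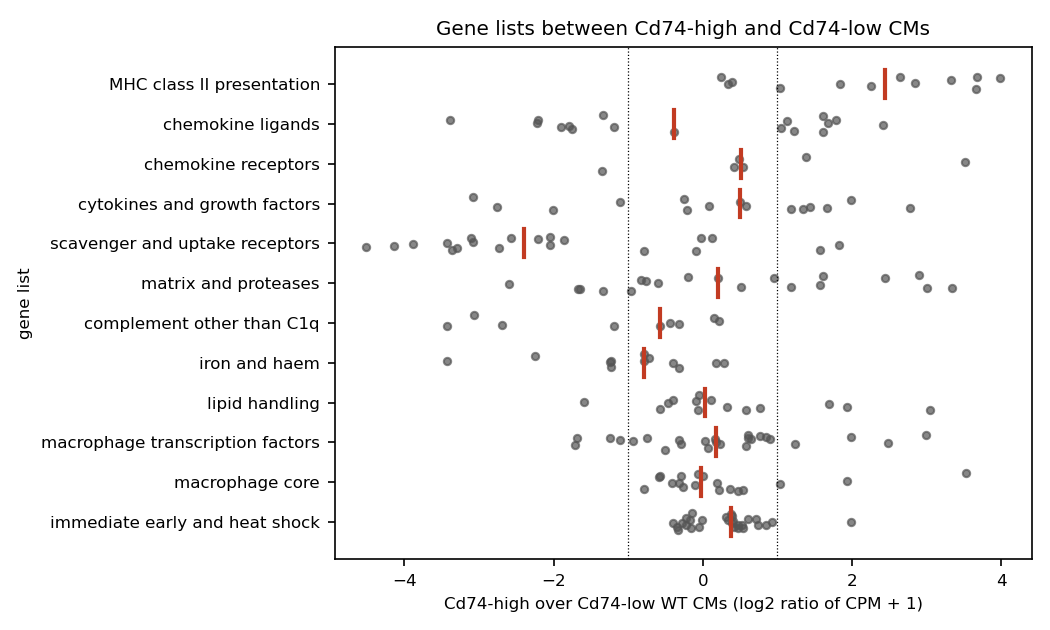
Log2 ratio of Cd74-high over Cd74-low WT CMs for the members of 12 gene lists. Each grey point is 1 gene at 20 CPM or more in either group, red bars are list medians and dotted lines mark a ratio of 1 and -1. Class II genes lie to the right (median 2.45), genes of the uptake list to the left (median -2.39), and chemokine ligands on both sides.

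Set against the other tissues, Cd74-low and Cd74-high CMs shared part of the genes that set CMs apart. Of the 73 genes higher in CMs and not raised 2-fold with markers of another cell type, 30 met the rule in both groups, 19 in Cd74-low CMs only and 24 in Cd74-high CMs only. The 30 included Mgl2 (366 and 255 CPM in Cd74-low and Cd74-high CMs), Ms4a7 (1468 and 1854), Ccl8 (1190.1 and 258), Ccl7, F13a1, Cbr2, Pf4, Stab1, Gas7, Amica1, Ccr1, Cd93, Cd4 (108 and 104), Ms4a6b, the Notch effector gene Rbpj and the sterol synthesis genes Fdps and Msmo1. The 19 of Cd74-low CMs included the Fc receptor gene Fcgr2b, Cd63, Gas6, Clec10a, Cd209g, Colec12 and Retnla. The level of Retnla rests on few cells, since 76.6% of its UMIs lay in 1% of all CMs thinned to 4000 UMIs. The 24 of Cd74-high CMs included Cd74, H2-Ab1, H2-Aa, H2-Eb1, Ciita, H2-M2, Apol7c, Mmp12, Mmp13, Cxcl16, Cxcl1, Il1r2, Ptgs2, Tmem176a and Ahr, the aryl hydrocarbon receptor gene. In Cd74-low CMs Cd74, H2-Aa, H2-Ab1 and H2-Eb1 were below WT KCs, with log2 ratios of -1.43, -1.55, -1.12 and -0.94. Beside the Nr1h3fl/fl WT KCs, Cd74 was close at 2854 against 2971.5 CPM and H2-Aa was lower. H2-Ab1 and H2-Eb1, at 1710 and 1145 CPM, were above their 1282 and 817 CPM. In Cd74-high CMs these genes were above WT KCs, with 2.52, 2.14, 2.24 and 2.74. The KCs were not divided by Cd74, so these directions follow in part from how the CM groups were formed. At 1000 UMIs a cell, the squared coefficient of variation of Cd74 beyond counting was 0.578 in KCs and 0.731 in CMs. Across all genes 129 of 4999 (2.58%) were higher than in every other tissue in Cd74-low CMs and 115 of 4296 (2.68%) in Cd74-high CMs, and 44 genes passed in both. Of the 23 genes lower in CMs, 13 met the rule in both groups, Mertk, Abcg1 and Fkbp5 among them, 5 in Cd74-low and 5 in Cd74-high CMs only, where 37 (1.05%) and 65 (1.84%) of 3535 genes were lower in all. Across all genes, 16 were lower in both groups. Both CM groups lacked cells with 3 or more other-type UMIs, whereas the compared libraries kept such cells. Lyz1 also passed in Cd74-high CMs, but it shares much of its sequence with Lyz2, so reads may be divided between them, and the same holds for Ms4a6b, Ms4a6c and Ms4a6d.

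**Figure D4:**
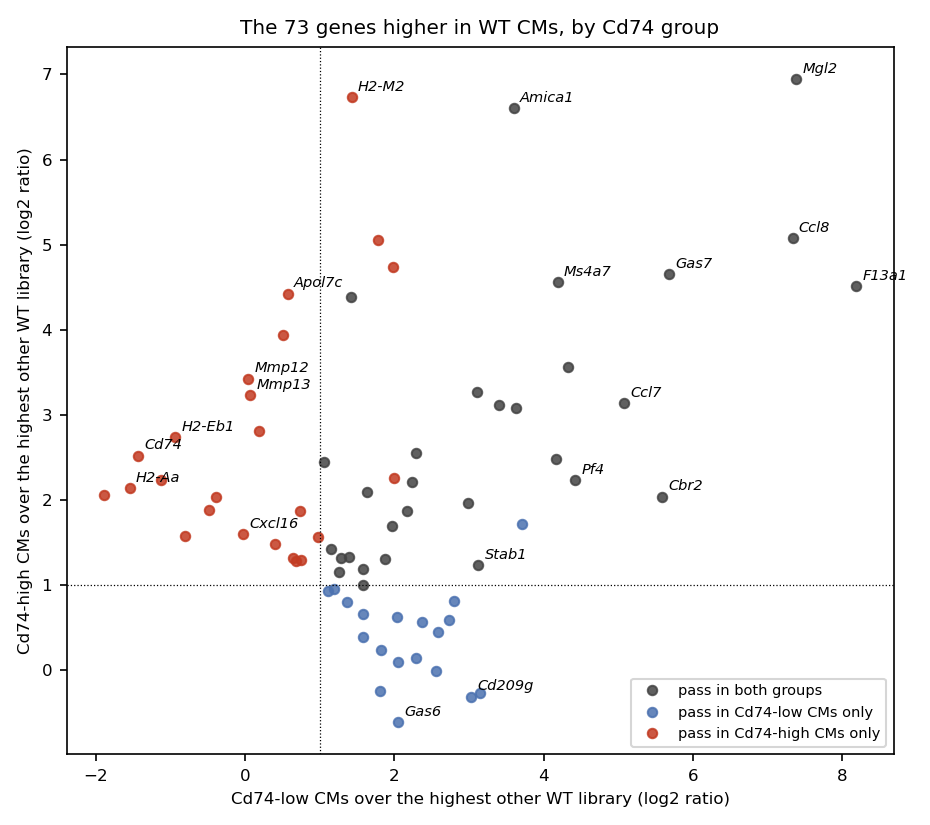
The 73 genes higher in WT CMs and not raised 2-fold with markers of another cell type, in Cd74-low and Cd74-high CMs. Axes give the log2 ratio of CPM + 1 of Cd74-low (x) and Cd74-high CMs (y) over the highest of the other 4 WT libraries, dotted lines mark a ratio of 1, and a gene also needed 20 CPM in a group to pass there. Class II genes lie above the line in y and to its left in x, and Mgl2, F13a1, Ccl8 and Ms4a7 lie far above both.

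The colon library labelled Zeb2KO, from Fcgr1-cre x Zeb2fl/fl mice, was set against the 4 other Zeb2KO libraries by the same rule. The labels give Fcgr1-cre for these too, whereas the study's text gives Clec4f-cre for KCs and Itgax-cre for AMs, and it describes macs that kept 1 Zeb2 allele in every organ but the brain, so Cre driver and tissue cannot be told apart there. Zeb2 stood at 470.3 CPM in its CMs and 371 CPM in WT CMs, and 3′ counts outside the deleted stretch do not check the deletion. There 143 of 4939 genes (2.9%) were higher in CMs and 23 of 3518 (0.654%) lower. The higher genes shared 102 with WT, which is 59.6% of the 171 and 71.3% of the 143, and of the 73 genes above 40 (54.8%) passed and 63 had a ratio over 0. Of the 23 genes lower in WT CMs, 12 passed and the ratio of each was under 0 in Zeb2KO. Pf4 (3972.0 CPM), Ms4a7 (1479 CPM), Ccl8 (1006 CPM), Mgl2 (156 CPM), F13a1 (455 CPM) and Cbr2 (413 CPM) were again highest in colon by log2 ratios of 3.23, 3.47, 8.16, 4.66, 5.29 and 4.45, and Mertk (22.99 CPM) was again lowest, at -2.61. Cd74 (15287 CPM), H2-Aa, H2-Ab1 and H2-Eb1 had ratios of 0.76, 0.41, 0.52 and 0.70 there and were not called. Grouped by Cd74 in the same way, Zeb2KO CMs shared 188 of the 251 genes higher in WT Cd74-high CMs (74.9%, and 60.5% of the 311 of Zeb2KO, 5.83% of its genes) and 309 of the 486 lower ones (63.6%, and 66.7% of 463, 8.68%), and no gene was called in opposite directions. The groups were not of the same Cd74 range. In Zeb2KO CMs the low group held at most 8 Cd74 UMIs and the high group at least 82, against 22 and 132 in WT CMs. The library and the deletion cannot be told apart for genes that did not pass in both.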

How the data were processed

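The authors deposited 1 table of whole UMI counts per gene and cell barcode for each library, made with Cell Ranger (which aligns with STAR) against mm10. Per the study's methods, KCs and AMs were demultiplexed with an earlier version than microglia, SMs and CMs, the same split as the sequencer's. All 11 tables were read. Cells were kept within 3 median absolute deviations of the library median in log UMIs, log genes and (upper side) mitochondrial share, after the study's filter, and with 5 or more C1q UMIs, except in lung, where no WT AM reached 5. Counts were summed per library and brought to a common library size (CPM). Mitochondrial, ribosomal, immunoglobulin, haemoglobin, Xist and Y-linked genes (868) were left out of calls. With 1 library per group, a fold rule (2-fold, 20 CPM, pseudocount of 1 CPM) stood in for a test. Named genes were the 20 highest ratios (of genes at 50 CPM or more with a UMI in at least 20% of CMs), the 10 lowest ratios, the 10 most abundant genes called, the 10 most variable, the 10 extreme genes of the Cd74 groups, the 4 markers and up to 4 per list. Further members of a list, and genes such as Fxyd2 and H2-M2 outside these ranks, were named after their values were seen. Members and lists were chosen with earlier results of these data known. Cells were thinned without replacement (fixed seed) for shares, variation and Cd74 groups. The rules were tested on simulated counts. Coordinates are from GENCODE M21 (187 of 194 called genes matched). Lengths are of the longest basic transcript. Of the other 6 libraries, the Nr1h3fl/fl WT KCs and the 5 Zeb2KO libraries served only where named. Software was Python 3.11.15, numpy 2.4.6, scipy 1.17.1, pandas 2.3.3 and edgeR 4.0.16 (TMM factors only). Alternatives covered scaling, pseudocount, floor, fold, cell filter, C1q minimum, cells of other types, each compared library, thinning depth and 2 Cd74 groups in place of 3.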

Additional observations from a re-analysis of the deposited data

How the results depend on the processing

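No test was made, so direction and the 2-fold rule were followed. Of 97 counts recomputed, 67 stayed within 1.5 times the value given. The 171 higher genes became 350 at a floor of 5 CPM, 96 at 50 CPM, 585 with no floor, 101 at a log2 ratio of 2, 259 without microglia, 344 against microglia and SMs alone and 73 without genes that follow another cell type. The 23 lower genes became 15 with TMM, 43 at 5 CPM, 13 at 50 CPM, 50 with no floor, 4 at a log2 ratio of 2, 126 without microglia, 92 without KCs, 62 without AMs, 291 against microglia and SMs alone, 42 with the Nr1h3fl/fl WT KCs in place of the WT KCs, and 37 and 65 in Cd74-low and Cd74-high CMs. At 5 and 50 CPM, the differences were 3356 and 1235 against microglia (2115 as given), 2024 and 702 against KCs (1219), and 203 and 37 between the liver libraries (75, or 115 without cells of 3 or more other-type UMIs), and at 50 CPM 1499 against AMs (2450) and 1705 against SMs (2879). The 854 genes called between the Cd74 groups of all CMs became 568 with 2 groups in place of 3, and the 93 variable genes became 55 at 2000 UMIs. Without cells of 3 or more other-type UMIs (plasma cell markers not counted) in any library, 125 genes were higher, 25 lower, and 2091, 1136, 2599 and 2827 differed from microglia, KCs, AMs and SMs. The epithelial and endothelial lists hold Krt19 and Cdh5, which are also on the AM and KC lists, so this filter could leave out AMs and KCs too. Of 666 ratios of 37 named genes, 446 stayed within the counting interval, 216 moved out of it and 4 changed sign, which were Cd74 (-1.43), H2-Aa (-1.55), H2-Ab1 (-1.12) and H2-Eb1 (-0.94) in Cd74-low CMs. These CMs were chosen for low Cd74, and the KCs were not divided. A ratio that moved could still meet the 2-fold rule. Ratios fell short of it for Cd63 (0.80), Lyve1 (0.89), Il1a (-0.99) and Parvg (-0.92) in Cd74-high CMs and for Tmem176a (0.64) in Cd74-low CMs. Without the C1q rule in the other 4 libraries, the ratio of Adam19 went from 4.196 to 2.91. A C1q minimum of 5 in lung left no AM, so it gave no value. No paired analysis was possible because each group is 1 library. The split into genes that follow another cell type, leaving out CMs with 20 or more (or 10) such UMIs, each Cd74 group set against the tissues and the Cd74 groups of Zeb2KO CMs were chosen after seeing the data. Depth, from 8479433 to 45276504 UMIs, limits genes of a few CPM most, and 1 library per tissue leaves the spread between mice unknown.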

Other observations

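Other gene lists are given beside the share of all genes called, 3.54% higher and 0.651% lower. For lists this short a count of 0 is near that share, and a count of 1 rests on a single gene. Of 25 mac transcription factor genes at 20 CPM or more in CMs, Rbpj (130 CPM, at most 44.0 elsewhere), Runx3 (65.7 CPM, at most 7.43) and Ahr (64.2 CPM, at most 24.8) were higher in CMs, and no gene of the list was lower. Hes1, a Notch target gene, was at 673 CPM against at most 439 CPM and was not called, yet it went from 260.4 CPM in Cd74-low to 1040.5 CPM in Cd74-high CMs. Of 5 MS4A genes measured, Ms4a7 and Ms4a6b (396 CPM, at most 119) were higher. Of 18 matrix and protease genes 4 were higher, Mmp13 (104 CPM, at most 17.9), Mmp12 (46.5 CPM, at most 7.65), Mmp14 and Mmp2, of which the last pair followed fibroblast markers. Without the 247 CMs with markers of another type Mmp14 was still called (79.2 CPM, log2 ratio 1.69) and Mmp2 was not (27.9 CPM, 0.86). Of 15 lipid genes at 20 CPM or more in CMs Cd63 was higher, of 6 at that level in each other library Abcg1 was lower, and of 5 coagulation genes F13a1 was higher. No gene was called higher among 10 complement genes other than C1q, 12 iron and haem genes, 11 interferon-stimulated genes, 12 genes of the IL-10 and TGF-beta response, 28 immediate early and heat shock genes and 8 cell cycle genes at 20 CPM or more in CMs, nor lower among the 2, 7, 3, 8, 21 and 5 genes of these lists, in the same order, at that level in each other library.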
